A study of Homo sapiens with 17 samples.

Results

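The SR splicing factors described here were 10 genes, SRSF1, SRSF2, SRSF3, SRSF4, SRSF5, SRSF6, SRSF7, SRSF9, SRSF10 and SRSF11, taken by name from the 23368 genes of a count table, with earlier results of these data known. They were followed through acRIP-seq of HEK293T cells, a human embryonic kidney line, in which poly(A) RNA that carries N4-acetylcytidine (ac4C) is captured with an antibody and sequenced. The 6 groups were input RNA without antibody, the anti-ac4C pull-down (IP) and a pull-down with control rabbit immunoglobulin G (IgG), each from cells with the genotype label WT and from cells labelled siTARDBP. The latter had been transfected with siRNA against TARDBP, the gene of the RNA-binding protein TDP43, and are called siTDP43 below. Each group had 3 libraries except WT IgG, which had 2, giving 8 WT and 9 siTDP43 libraries. All groups shared oligo(dT) selection and Smart-seq2 amplification, and WT labels name no control siRNA. The labels do not say whether libraries of a group came from separate cultures, so p-values measure the spread between these libraries, which may be technical.

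SR proteins bind exons through RNA recognition motifs and recruit the spliceosome through a tail rich in arginine and serine, which SRPK and CLK kinases phosphorylate. They are known for promoting exon inclusion, and several also help to export, polyadenylate or translate mRNA. Many SR genes hold conserved "poison" exons, whose inclusion marks the transcript for decay and lets the proteins restrain their own levels. SRSF1, SRSF4, SRSF5, SRSF6 and SRSF9 have a pair of RNA recognition motifs, SRSF2, SRSF3 and SRSF7 have a single one, and SRSF10 and SRSF11 are less typical relatives.

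In hg19 the genes with a pair of motifs lie at chr17:56078280-56084707 (SRSF1, minus strand), chr1:29474250-29508637 (SRSF4, minus), chr14:70233829-70238722 (SRSF5, plus), chr20:42086504-42092244 (SRSF6, plus) and chr12:120899471-120907558 (SRSF9, minus). Those with a single motif lie at chr17:74730197-74733493 (SRSF2, minus), chr6:36562090-36572244 (SRSF3, plus) and chr2:38970741-38978636 (SRSF7, minus). SRSF10 lies at chr1:24292937-24306953 (minus) and SRSF11 at chr1:70671365-70717701 (plus).

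TDP43 is known to bind UG repeats, and the exons of the SR genes were therefore searched on their sense strand for UGUGUG, and also for UGUGCG and UCCCAGCU, motifs that the study also examined. UGUGUG was found at 17 sites in 6 of the genes, overlapping sites counted separately, while 65.9% of the 15165 genes tested in all libraries held it. SRSF10 had 7 sites and SRSF1 had 5, all of the latter in the 3′ UTR, SRSF6 had 2, and SRSF3, SRSF7 and SRSF11 had 1 each. SRSF2, SRSF4, SRSF5 and SRSF9 had none in these exons. Longer exons hold the motif more often. Among genes within 20% of the exon length of SRSF9 and SRSF5, 35.1% and 45.8% held it. For SRSF10 and SRSF1 these shares were 84.2% and 87.1%, and for SRSF4 and SRSF2 62.1% and 68.4%. The longest run of each of the 6 genes, the 5′-most where runs tied, is shown within 30 bases of RNA sequence (hg19). UGUGUG is in capitals, and the other 4 genes held no such stretch in these exons.
SRSF1, 3′ UTR, chr17:56082474-56082503, minus strand: ucugcccugguuUGUGUGaacugggauguu
SRSF3, coding sequence, chr6:36564641-36564670, plus strand: accacuccgaagUGUGUGgguugcuagaaa
SRSF6, 5′ UTR, chr20:42086526-42086555, plus strand: cgcgcgcgccauUGUGUGgcuggacucggc
SRSF7, 5′ UTR, chr2:38978454-38978483, minus strand: ggcgggugaaggUGUGUGucagcuuuugcg
SRSF10, 3′ UTR, chr1:24296495-24296524, minus strand: aguagguuuUGUGUGUGUGUGccuagugua
SRSF11, 3′ UTR, chr1:70716528-70716557, plus strand: gugucauuccuuUGUGUGauuucuuaaugc

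SRSF10 alone had a run long enough for 4 overlapping copies, 12 bases in its 3′ UTR. UGUGCG, present in 30.9% of the tested genes, and UCCCAGCU, present in 19.7%, occurred in 0 of the 10. Cytidine, the base that is acetylated, made up less of the exons of all 10 SR genes than the 24.3% median of the tested genes. Its share ran from 17.2% in SRSF1 to 24.2% in SRSF4. SRSF4, SRSF9 and SRSF2 were only a little low, at percentiles 49.5, 40.5 and 36.8 of the tested genes. The GC share of the SR genes lay below the median of 49.6% in 8 of 10, the exceptions being SRSF4 at 53.3% and SRSF9 at 52.2%. These letters describe the exons and locate no binding or acetylation.

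Total counts per library were 24542434 to 36583436 in the inputs, 8610070 to 21066215 in the IP groups and 3013989 to 9466855 in the IgG groups, and an SR gene had 45 to 30901 counts in a library. No molecular identifiers were used, so reads are not independent molecules. TARDBP itself, the check of the knockdown label, had 149.7, 157 and 151 CPM (counts scaled to library size by TMM over all libraries) in WT input and 98.7, 102 and 106 CPM in siTDP43 input. It was lower in all siTDP43 inputs, by 1.49-fold, a log2 change of -0.57 (SE 0.0451, adjusted p 6.55e-13). Of the markers used to check the line, VIM, KRT8, KRT18 and CDH2 were counted in every library, whereas PAX2, a kidney marker, had 11 to 54 counts in WT input and 2 to 4 in siTDP43 input. Of the 4 line markers tested in input, 3 were lower and 1 higher in siTDP43, with a median log2 change of -1.06, and their part in the results was not tested. PTPRC, ALB, MLANA and CD3E, markers of leukocytes, liver, melanocytes and T cells, had at most 26 counts in any library. HBB, of red blood cells, had 0 counts in all inputs and all WT pull-downs and 6 to 24 in siTDP43 pull-downs. The study's methods add a β-globin RNA as a spike-in, and its part in these counts was not tested. Each genotype may have been a batch of its own, and genotype and batch cannot be told apart.

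In WT input the SR mRNAs differed widely in RPKM (CPM per kilobase of the exon length in the table). SRSF7, a zinc-knuckle protein that acts in splicing and export, was at 78.3 ± 3.58 RPKM (SD, n = 3). SRSF3, the smallest SR protein and an adaptor for mRNA export, was at 78.2 ± 0.770, and the libraries of these 2 overlapped. SRSF5, SRSF11, SRSF4 and SRSF9 followed at 68.6 ± 3.04, 59.3 ± 0.335, 57.2 ± 0.470 and 51.0 ± 2.93 RPKM without overlap between neighbours. SRSF2, SRSF1, SRSF6 and SRSF10 were the low end, at 30.9 ± 0.962, 22.2 ± 0.327, 16.5 ± 0.263 and 10.03 ± 0.318 RPKM, again without overlap at the lengths in the table. The length listed for SRSF10, 9978 bases, counts a second copy on an unlocalized chromosome 1 sequence. With its chromosome 1 exons alone, 4987 bases, SRSF10 was at 20.1 RPKM, above SRSF6 and below SRSF1. Reads shared by both copies would not map uniquely, so the level of SRSF10 is uncertain.

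In siTDP43 input the order was different. SRSF3 was at 274 ± 7.85 RPKM and SRSF7 at 227 ± 8.30, and these no longer overlapped. SRSF5 and SRSF1 came next at 127 ± 4.09 and 118 ± 2.64 RPKM, so that SRSF1 stood 4th here against 8th in WT input. SRSF11, SRSF4, SRSF2 and SRSF6 had 96.6 ± 1.52, 87.1 ± 3.27, 84.3 ± 2.03 and 66.3 ± 1.42 RPKM, with overlap between SRSF4 and SRSF2 alone. SRSF10 followed at 31.4 ± 0.914 RPKM, or 62.8 with the shorter length. SRSF9 was last at 11.3 ± 1.46 RPKM, against 6th of 10 in WT input.

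The first comparison asked how SR mRNA abundance differed between the inputs. SRSF1, SRSF2, SRSF3, SRSF4, SRSF5, SRSF6, SRSF7, SRSF10 and SRSF11 were higher in siTDP43 input, from 1.53-fold in SRSF4 to 5.32-fold in SRSF1, and SRSF9 was 4.48-fold lower. Thus 9 of 10 were called higher and 1 lower at an adjusted p under 0.05 (edgeR, 3 libraries against 3), beside 38.6% and 40.6% of the 14036 genes tested. The median log2 change of the 10 was 1.498 against -0.049 over all genes tested. No library of 1 genotype overlapped the other for any of the 10, whereas siTDP43 libraries lay wholly above for 38.7% and wholly below for 41.6% of all genes tested. In bulk RNA such as this, a change in the mix of cells and a change of RNA per cell cannot be told apart. Together the 10 genes took 0.145% ± 0.00135 (SD, n = 3) of all counts in WT input and 0.383% ± 0.00676 in siTDP43 input.

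**Figure D1:**
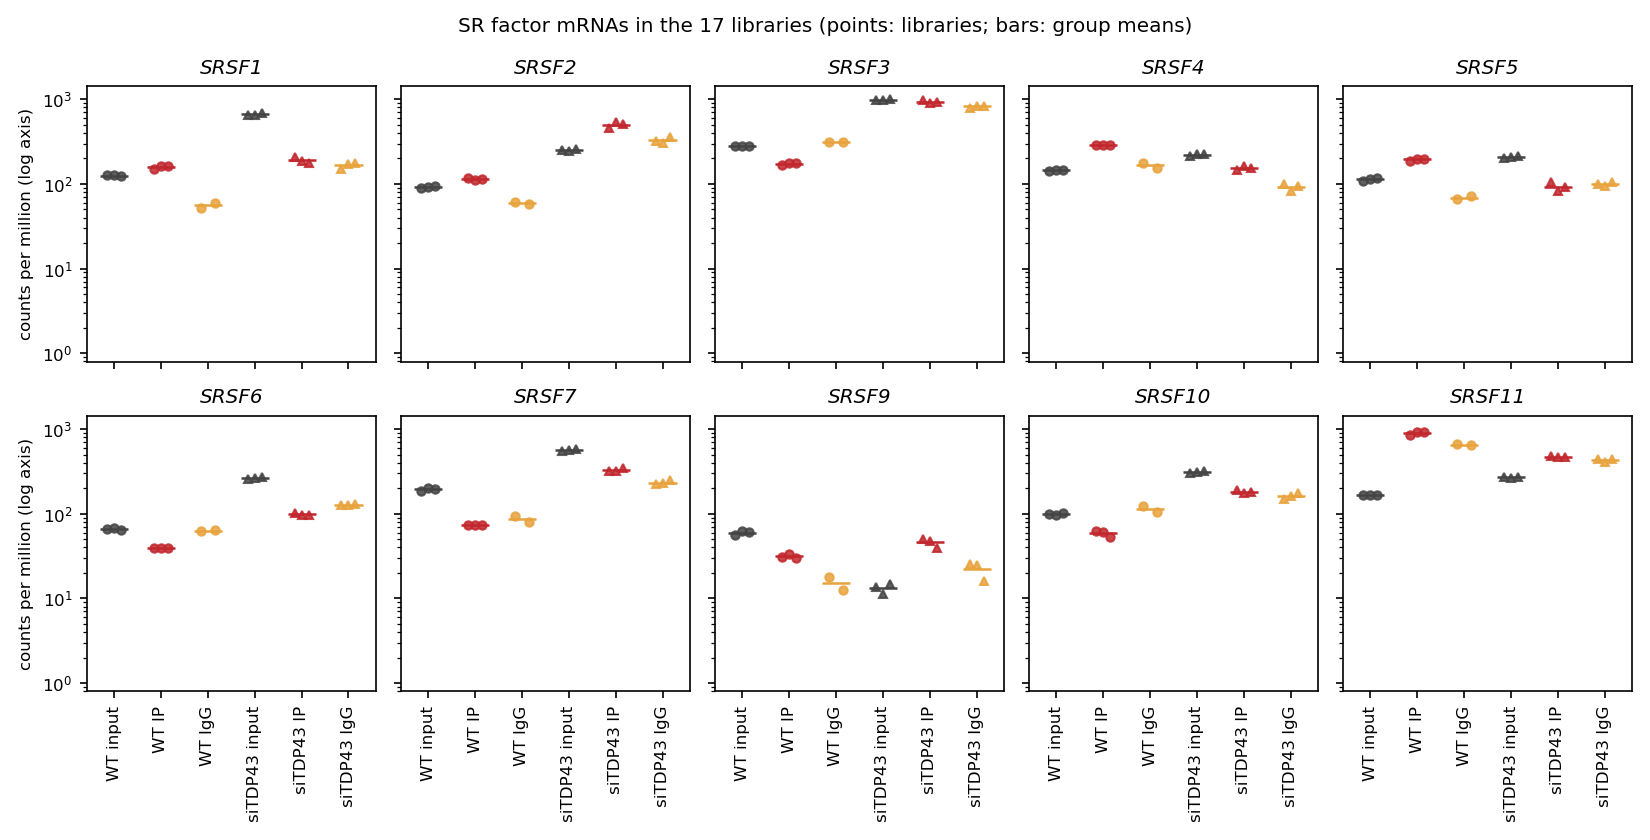
CPM of each SR gene (log axis) in the 17 libraries, with 1 point per library, bars at group means, and colours for input, IP and IgG. The siTDP43 input points lie above the WT input points in every panel except SRSF9, where they fall from about 59.4 to 13.2 CPM.

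Among the proteins with a pair of RNA recognition motifs, SRSF1, the founding member, which binds purine-rich exonic enhancers, had 126, 126 and 123 CPM in the WT inputs and 654, 656 and 681 CPM in the siTDP43 inputs. The siTDP43 libraries were all far above the WT libraries, with a log2 change of 2.41 (SE 0.0394, adjusted p 4.04e-30). SRSF6, also known as SRp55, had 66.4, 67.0 and 65.0 CPM in WT and 260.0, 267 and 271 CPM in siTDP43. It rose 4.04-fold, log2 2.01 (SE 0.0435, adjusted p 4.70e-27), again with all siTDP43 libraries above. The other 2 that rose did so less. SRSF5, whose gene responds to growth signals, had 108, 114 and 118 CPM in WT and 203, 209 and 216 CPM in siTDP43, a log2 change of 0.89 (SE 0.0445, adjusted p 8.26e-18). SRSF4, the largest of the classical SR proteins, had 144, 145 and 146 CPM in WT and 211, 224 and 226 CPM in siTDP43, a log2 change of 0.61 (SE 0.0420, adjusted p 2.52e-14). Both were separated between genotypes by gaps wider than the spread within a group.

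SRSF9, a short SR protein with a small arginine-serine tail, went the other way. It had 55.6, 62.2 and 60.3 CPM in the WT inputs and 13.6, 11.3 and 14.6 CPM in the siTDP43 inputs. Every siTDP43 library was low, and the log2 change was -2.16 (SE 0.0803, adjusted p 3.93e-21). Its exons overlap those of GATC, a mitochondrial amidotransferase subunit encoded on the opposite strand, over 495 bases or 42.6% of the exon length of SRSF9. GATC moved oppositely, from 47.6, 49.9 and 51.3 CPM in WT input to 172, 178 and 174 CPM in siTDP43 input. The strand setting of the counting was not stated, so reads of the shared stretch cannot be assigned to either gene, and the part this plays in the SRSF9 values was not tested.

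Of the proteins with a single RNA recognition motif, SRSF3 had 278, 284 and 282 CPM in WT input and 975, 969 and 1020.5 CPM in siTDP43 input. It held the highest CPM of the 10 in both, and rose 3.52-fold, log2 1.82 (SE 0.0371, adjusted p 1.17e-27). SRSF7 had 185, 202 and 198 CPM in WT and 547, 564 and 588 CPM in siTDP43, a log2 change of 1.54 (SE 0.0415, adjusted p 1.19e-24). SRSF2, also called SC35 and used as a marker of nuclear speckles, had 89.3, 90.9 and 94.9 CPM in WT and 251, 243 and 255 CPM in siTDP43, a log2 change of 1.45 (SE 0.0431, adjusted p 1.28e-23). For all 3 the siTDP43 libraries lay wholly above. SRSF2 shares 293 bases, 9.89% of its exons, with MFSD11 on the opposite strand, whose CPM was 13.7 ± 0.367 (SD, n = 3) in WT and 14.5 ± 1.61 in siTDP43 input. It also shares 15 bases with the microRNA gene MIR636, and SRSF5 shares 16.3% of its exons with the opposite-strand LOC100289511.

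Of the less typical members, SRSF10, which turns into a splicing repressor when dephosphorylated, had 100.1, 96.9 and 103 CPM in WT input and 304, 314 and 322 CPM in siTDP43 input. It rose 3.14-fold, log2 1.65 (SE 0.0427, adjusted p 4.34e-25). SRSF11, which contacts U2AF and SRSF1 at the 3′ splice site, had 166, 165 and 166 CPM in WT and 269.9, 265 and 274 CPM in siTDP43. Its 1.63-fold rise, log2 0.71 (SE 0.0395, adjusted p 1.33e-16), was small beside that of SRSF10 and yet far outside the spread of either group. All 10 calls in input kept their direction and stayed past the threshold under every alternative tried.

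Other genes of SR protein biology, grouped in lists by function, moved both ways in input. Of all 14036 genes tested there, 38.6% were called higher and 40.6% lower. Of 8 SR protein kinases tested, 2 rose and 3 fell, with DYRK1A and CLK2 at log2 -0.94 and -0.80. Of 18 SR-related coactivators, SRSF8 and SRSF12 included, 9 rose and 6 fell. TRA2B, an SR-like binder of exonic enhancers, rose by log2 1.52 and SRRM2, a scaffold of nuclear speckles, fell by 1.27. Of 8 genes of splice-site recognition, 3 rose and 4 fell, including SF3B1 of the U2 particle at 1.68 and SNRNP70 of the U1 particle at -2.73. Of 4 import and export partners, TNPO3, the importin of SR proteins, and 1 other rose, and ALYREF, an export adaptor, had -0.79. The medians of these lists, -0.05, 0.26, -0.057 and 0.24, lay nearer to that of all genes than the median of the SR genes did.

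**Figure D2:**
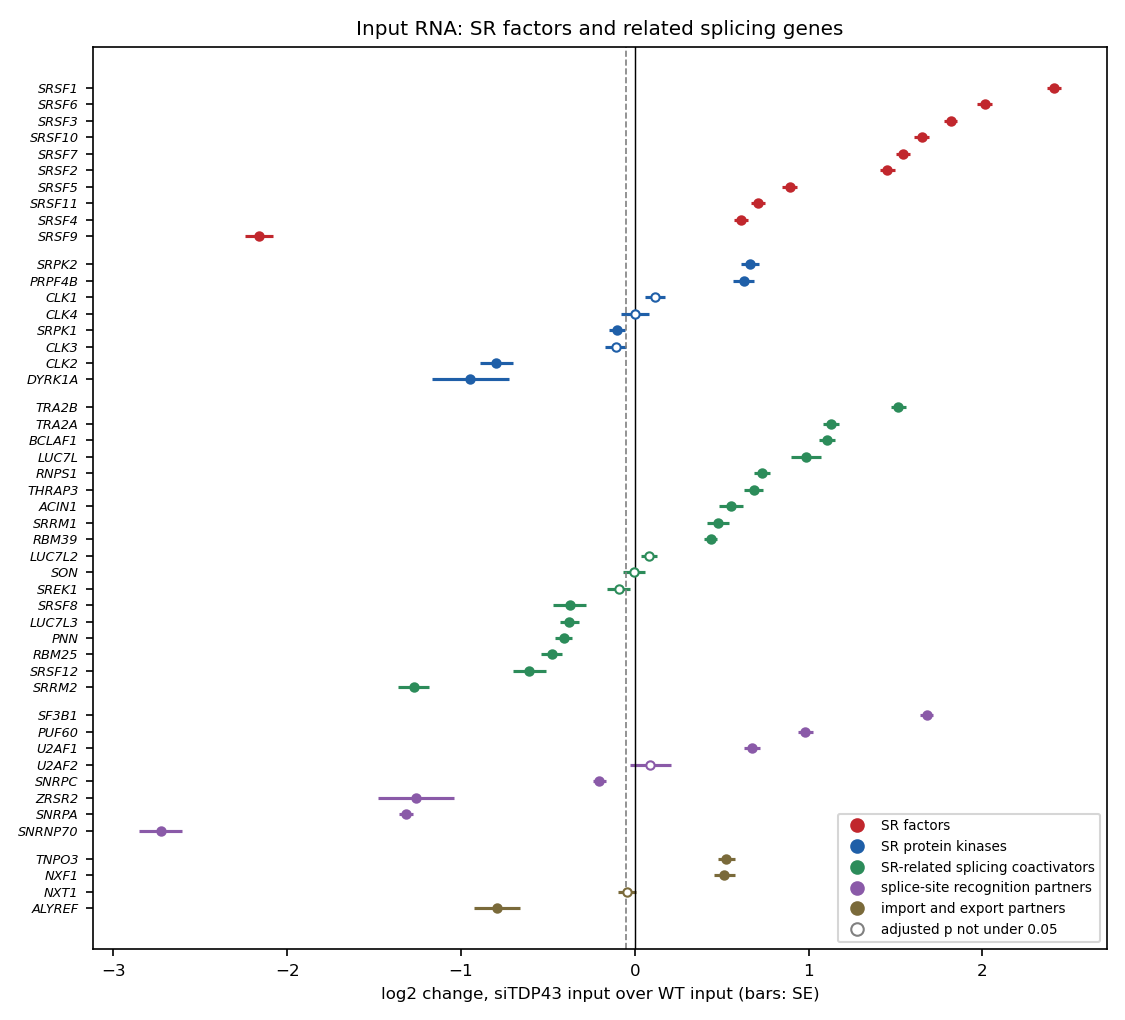
Log2 change of siTDP43 input over WT input (points, with SE bars) for the 10 SR genes and the genes of 4 related lists; open points had an adjusted p not under 0.05 and the dashed line is the median of all genes tested. Of the 10 SR genes all except SRSF9 lie to the right of 0, whereas each related list spreads to both sides. SRSF8 and SRSF12, in the coactivator list, lie to the left of 0.

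The second comparison asked which SR mRNAs were enriched with anti-ac4C antibody from WT cells. Pull-down RNA was too scarce to quantify and the spike-in was not used. Folds of pull-downs thus compare a gene's share of scaled libraries, and the amount of RNA recovered is not known. SRSF11 stood out, 5.43-fold above input in IP, but it was 4.04-fold above input in IgG too. SRSF7 was 2.64-fold lower in IP than in input. Against input, 1 of 10 was called higher and 1 lower (more than 2-fold, with an adjusted p under 0.05), beside 30.2% and 27.3% of 14751 genes. Against IgG, SRSF1, SRSF5 and SRSF9 were called higher and 0 lower, beside 35.2% and 17.8%. All 10 had an adjusted p under 0.05 in edgeR, with 4 of them lower in IP at a smaller fold, and DESeq2 called 0 lower too. The study calls a transcript ac4C(+) when IP exceeds both controls. With both folds above 2, 0 of the 10 met this, beside 15.6% of all genes tested. With a GC trend removed from each library, an alternative applied to this rule after the data had been seen, SRSF1 and SRSF5 met it, 2 of 10 beside 11.1% of all genes.

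SRSF11 had 166, 165 and 166 CPM in WT input, 847, 914 and 924 CPM in IP and 659.8 and 654 CPM in IgG. Both pull-downs were high and did not overlap the input, and the IP libraries were also above the IgG libraries. The log2 change was 2.44 (SE 0.0486, adjusted p 7.82e-23) for IP over input, 2.01 (SE 0.0520, adjusted p 2.41e-20) for IgG over input, and 0.43 (SE 0.0524, adjusted p 9.65e-08) for IP over IgG, which is 1.34-fold. SRSF11 made up 12.3% of the counts of the 10 genes in WT input, 44.1% in IP and 41.0% in IgG. SRSF10 ran the other way, with 62.7, 61.0 and 53.5 CPM in IP, below its input, and 122 and 105 CPM in IgG, above its input. Its log2 change of IP over IgG was -0.96 (SE 0.0808, adjusted p 1.48e-10), just short of the 2-fold limit, which it crossed at -1.01 without WT IP library 1 and at -1.06 without WT IgG library 2.

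SRSF1, SRSF5 and SRSF9 were higher in IP than in IgG, each with an IgG level below input. SRSF1 had 152, 162 and 165 CPM in IP and 52.4 and 58.8 CPM in IgG, which is 2.83-fold (SE of log2 0.0735, adjusted p 8.22e-15), while IP was 1.28-fold above input, log2 0.36, or 1.06 and called with a GC trend removed. SRSF5 had 188, 196 and 199 CPM in IP and 67.1 and 71.0 CPM in IgG, a log2 change of 1.47 (SE 0.0704, adjusted p 5.19e-15), and IP was 1.72-fold above input, log2 0.79, or 1.2 and called with a GC trend removed. For both genes IP libraries were the highest, input next and IgG lowest, without overlap. SRSF9 had 30.7, 33.5 and 29.8 CPM in IP and 17.7 and 12.6 CPM in IgG, both under its input (IP over input -0.91, called at -1.08 with a GC trend removed). Its IP was 2.04-fold above IgG, log2 1.03 (SE 0.128, adjusted p 1.14e-07), a call lost without WT IP library 2 (log2 0.98), without WT IgG library 2 (0.81) and with a GC trend removed (0.36). None of the 3 reached 5-fold over IgG, the limit that the methods set for that control. The study's results use 5-fold over IgG for highly acetylated genes and 2-fold over both controls for moderately acetylated ones. Those folds were of FPKM + 1, whereas the folds here are of TMM-scaled counts.

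SRSF4 had 292, 285 and 287 CPM in WT IP and 179 and 156 CPM in WT IgG, with IP the highest group. Its log2 change over input, 0.999 (SE 0.0530, adjusted p 1.18e-14), fell just short of the 2-fold limit, which it crossed in 6 other settings and without WT input library 3, WT IP library 2 or WT IP library 3 (log2 1.01 in each of these). SRSF2 had 116, 111 and 114 CPM in IP and 60.5 and 58.0 CPM in IgG, with log2 0.32 against input and 0.92 against IgG, the latter called at 1.05 with total count scaling. SRSF6 had 39.5, 39.6 and 39.8 CPM in IP and 62.7 and 63.9 CPM in IgG, so IP was low and IgG near its input (log2 -0.036, adjusted p 0.664).

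SRSF3 and SRSF7 were low in WT IP. SRSF3 had 167, 176 and 178 CPM in IP and 314 and 312 CPM in IgG, with IP below both controls and log2 -0.69 against input and -0.87 against IgG. SRSF7 had 73.9, 72.7 and 73.7 CPM in IP and 94.95 and 80.7 CPM in IgG, both far under its input, with a log2 change of -1.40 (SE 0.0619, adjusted p 3.32e-16) for IP over input. With a GC trend removed from each library this became -0.80 and the call was lost. In IgG against input, SRSF11 was called higher and SRSF1, SRSF7 and SRSF9 lower, beside 24.4% and 36.6% of all genes. With a GC trend removed the IgG values of SRSF1 and SRSF7, -1.14 and -1.12 over input, both became -0.48 and were no longer called. The medians of the 10 were -0.18 for IP over input, 0.60 for IP over IgG and -0.32 for IgG over input, where all genes tested had 0.013, 0.29 and -0.39.

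**Figure D3:**
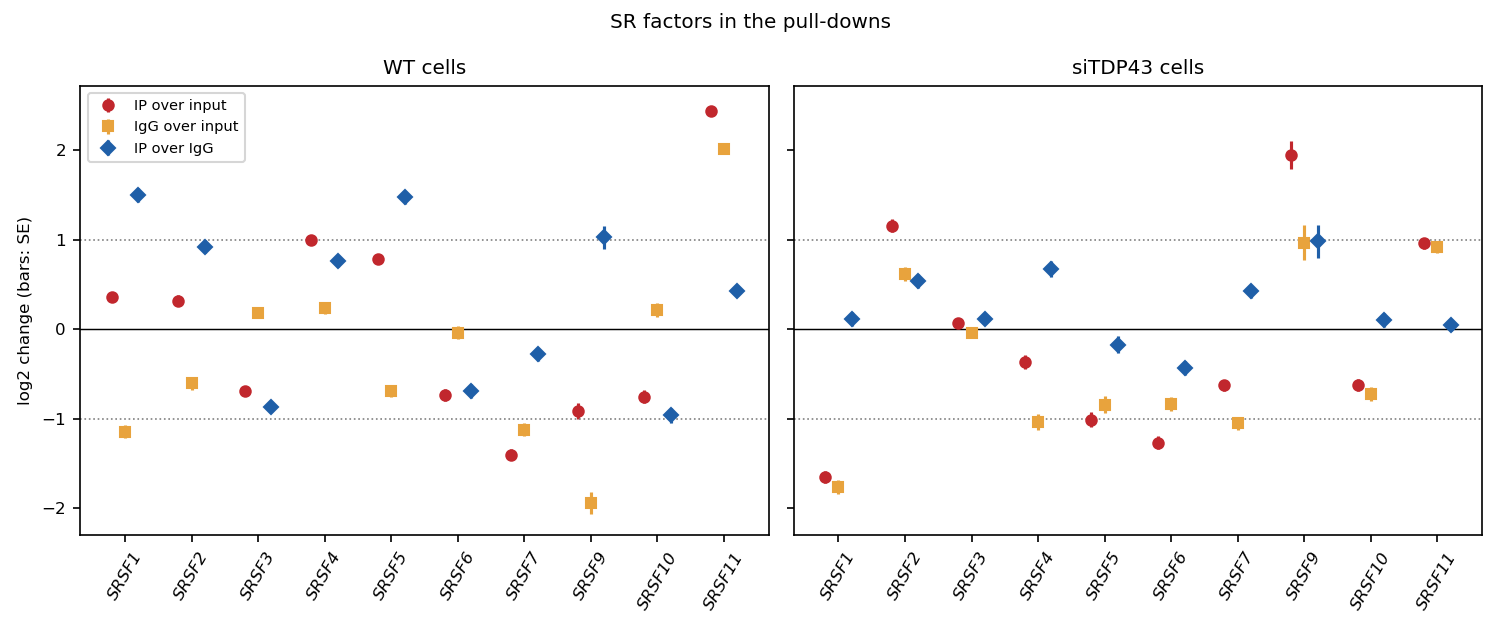
Log2 change of IP over input, IgG over input and IP over IgG (points, with SE bars) for each SR gene in WT (left) and siTDP43 cells (right); dotted lines mark a 2-fold change. SRSF11 is high in both WT pull-downs (2.44 and 2.01), and in siTDP43 every IP over IgG value lies between -0.43 and 0.98.

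The same questions were asked in siTDP43 cells. Against input, SRSF2 and SRSF9 were called higher in IP and SRSF1, SRSF5 and SRSF6 lower, 2 and 3 of 10 beside 26.8% and 25.4% of 12746 genes. Against IgG, 0 were called in either direction by edgeR, beside 34% and 15%, and DESeq2 called 0 as well. In edgeR 4 were higher and 1 lower at an unadjusted p under 0.05 and a smaller fold. These were SRSF2, SRSF4, SRSF7 and SRSF9 (higher) and SRSF6 (lower), and all of them also had an adjusted p under 0.05 and missed only the 2-fold limit. Above both controls by 2-fold were 0 of 10, where 10.3% of all genes were. SRSF9 alone met this rule with total count scaling, limma or all 17 libraries in 1 fit, and without siTDP43 IP library 3, siTDP43 IgG library 1 or siTDP43 IgG library 2, where 4.2% to 10.5% of all genes did. In IgG against input, 0 were called higher by edgeR or DESeq2, 3 having an unadjusted p under 0.05. These were SRSF2, SRSF9 and SRSF11, and all of them also had an adjusted p under 0.05 and missed only the 2-fold limit. SRSF1, SRSF4 and SRSF7 were called lower, so 0 were called higher and 3 lower, beside 24.7% and 41%. That split was 0 higher and 6 lower with total count scaling and 4 higher and 0 lower with a GC trend removed. These settings also moved the median of all genes tested, by -0.55 and by 0.59. CPM below were scaled over all 17 libraries and the tests over the 9 siTDP43 libraries. Fitting all 17 moved the median of all genes by -0.26 for IP over input and by -0.54 for IgG over input, so folds against input are relative to that choice.

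SRSF9 had 13.6, 11.3 and 14.6 CPM in siTDP43 input, 50.7, 47.1 and 39.4 CPM in IP and 25.3, 25.1 and 16.0 CPM in IgG. IP was the highest and input the lowest group, with no overlap. The log2 change was 1.95 (SE 0.156, adjusted p 1.64e-10) over input and 0.98 (SE 0.186, adjusted p 7.36e-05) over IgG, the latter passing the 2-fold limit without siTDP43 IP library 3 (1.06), without siTDP43 IgG library 1 (1.10) and without siTDP43 IgG library 2 (1.08). GATC had 93.0, 94.0 and 104 CPM in IP and 142, 183 and 156 CPM in IgG, below its input in IP and overlapping it in IgG, and its part in the SRSF9 values was not tested. IgG over input was 0.97 and was called higher at 1.04 without siTDP43 input library 3 and at 1.15 without siTDP43 IgG library 3. SRSF9 counts were few here, from 45 in an IgG library to 682 in an IP library.

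SRSF2 had 452, 543 and 505 CPM in siTDP43 IP and 322, 306 and 356 CPM in IgG, and both groups lay above its input. The log2 change of IP was 1.16 (SE 0.0738, adjusted p 3.23e-12) over input and 0.54 over IgG, and the first call was lost at 0.82 with total count scaling. SRSF1 had 207, 185 and 177 CPM in IP and 149, 172 and 179 CPM in IgG, overlapping groups that were both far below its input. Its log2 change of IP was -1.65 (SE 0.0709, adjusted p 2.71e-15) over input and 0.12 (SE 0.0778, adjusted p 0.187) over IgG. SRSF5 had 106, 82.0 and 91.2 CPM in IP and 101, 93.5 and 105 CPM in IgG, again overlapping and low, with -1.01 (SE 0.0863, adjusted p 4.78e-10) over input. That call rested on a fold barely above 2 and was lost without siTDP43 input library 3 (-0.99), IP library 2 (-0.94) or IP library 3 (-0.99) and with a GC trend removed (-0.68). IgG over input was -1.76 for SRSF1, a call lost at -0.43 with a GC trend removed.

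SRSF6 had 103, 97.0 and 97.3 CPM in siTDP43 IP and 126, 126 and 129.5 CPM in IgG, and was the only SR gene whose IP libraries all lay below its IgG libraries. The log2 change was -1.27 over input, a call lost at -0.87 with a GC trend removed, and -0.43 over IgG, called at -1.24 with a GC trend removed. SRSF4 had 147, 162 and 152 CPM in IP and 98.8, 82.6 and 93.2 CPM in IgG, below input in both, with 0.67 (SE 0.0903, adjusted p 9.10e-07) over IgG. SRSF7 had 318, 324 and 346 CPM in IP and 222, 229 and 249 CPM in IgG, also below input and with 0.42 over IgG. The IgG groups of SRSF4 and SRSF7 were thus the lowest of their 3 groups, with -1.04 and -1.05 over input, both called lower. The call of SRSF4 was lost at -0.99 without siTDP43 IgG library 2, at -0.91 with a minimum mean of 50 counts and at -0.59 with a GC trend removed. That of SRSF7 was lost at -0.92 with the same minimum and turned to 0.19 with a GC trend removed.

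SRSF3 had 968, 912 and 920.3 CPM in siTDP43 IP and 794, 839 and 834 CPM in IgG, each a little below the input libraries. Its fitted log2 change of IP over input was 0.074 (adjusted p 0.209) and turned to -0.08 in a fit of all 17 libraries, so no direction was settled. SRSF10 had 191, 176 and 182 CPM in IP and 149, 162 and 175 CPM in IgG, with -0.62 over input and 0.10 over IgG (adjusted p 0.238). SRSF11 had 475, 473 and 466 CPM in IP and 443, 413 and 449 CPM in IgG, both above input. Its IP was at log2 0.96 over input and its IgG at 0.92, neither called, though both were at 1.04 and called with a minimum mean of 50 counts and at 1.36 and 2.12 with a GC trend removed. IP over IgG was log2 0.043 (adjusted p 0.537). With a GC trend removed, 6 of the 10 values of IP over IgG changed sign in siTDP43, so their direction there depends on that choice. The medians of the 10 were -0.49, 0.11 and -0.78 for IP over input, IP over IgG and IgG over input, against -0.092, 0.33 and -0.58 over all genes tested.

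The last comparison asked whether enrichment, as a ratio of library shares, differed with the knockdown. The difference of IP over input, or of IP over IgG, between siTDP43 and WT was tested in 1 fit of all 17 libraries. Over input, SRSF2, SRSF3, SRSF7 and SRSF9 rose and SRSF1, SRSF4, SRSF5, SRSF6 and SRSF11 fell, 4 and 5 of 10 beside 31.5% and 36.3% of 15165 genes (adjusted p under 0.05). Over IgG, SRSF3, SRSF6, SRSF7 and SRSF10 rose and SRSF1, SRSF2, SRSF5 and SRSF11 fell, 4 and 4 beside 34.9% and 25.9%. The median changes were -0.35 over input and -0.013 over IgG, against -0.19 and 0.24 over all genes tested. Both differences use the same IP libraries and the change over input holds the inputs of the first comparison, so the values are given side by side and are not independent.

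SRSF1 had the largest fall of the 10 over input, -2.15 (SE 0.0960, adjusted p 3.77e-21), beside -1.33 (SE 0.115, adjusted p 8.21e-13) over IgG. Its mean CPM went from 125 ± 1.85 to 664 ± 14.9 in input and only from 159 ± 6.88 to 189.9 ± 15.7 in IP (SD, n = 3). SRSF5 also fell by both measures, -1.94 (SE 0.107, adjusted p 2.61e-18) over input and -1.59 (SE 0.129, adjusted p 1.75e-13) over IgG, with IP libraries lower in siTDP43 than in WT. SRSF4 fell over input, -1.51 (SE 0.0948, adjusted p 1.19e-16), and had -0.036 over IgG (adjusted p 0.922), which was called lower at -0.26 by DESeq2 and higher at 0.48 with a GC trend removed. SRSF11 fell by 1.63 over input and by 0.33 over IgG, and was the 3rd SR gene, with SRSF4 and SRSF5, whose IP libraries were lower in siTDP43. SRSF6 fell by 0.68 over input and had 0.32 over IgG, a call that was lost at 0.09 with the size factors of DESeq2 and at 0.29 without a low-count filter, and that turned to -0.27 (adjusted p 0.0337) with a GC trend removed.

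SRSF9 had the largest rise of the 10 over input, 2.72 (SE 0.180, adjusted p 5.82e-16). Its mean CPM was 59.4 ± 3.404 and 13.2 ± 1.69 in the WT and siTDP43 inputs and 31.3 ± 1.93 and 45.7 ± 5.78 in the IP groups (SD, n = 3). Over IgG its change was 0.01 (SE 0.241), with IgG libraries that overlapped between genotypes, and its sign varied with the setting. SRSF3 rose by both measures, 0.61 over input and 1.03 over IgG. SRSF7 did so too, with 0.63 and 0.75, the second lost at 0.10 with a GC trend removed. SRSF2 rose by 0.69 over input and fell by 0.34 over IgG. SRSF10 had -0.015 over input (adjusted p 0.938), called at -0.31 with total count scaling, and rose by 1.12 over IgG.

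**Figure D4:**
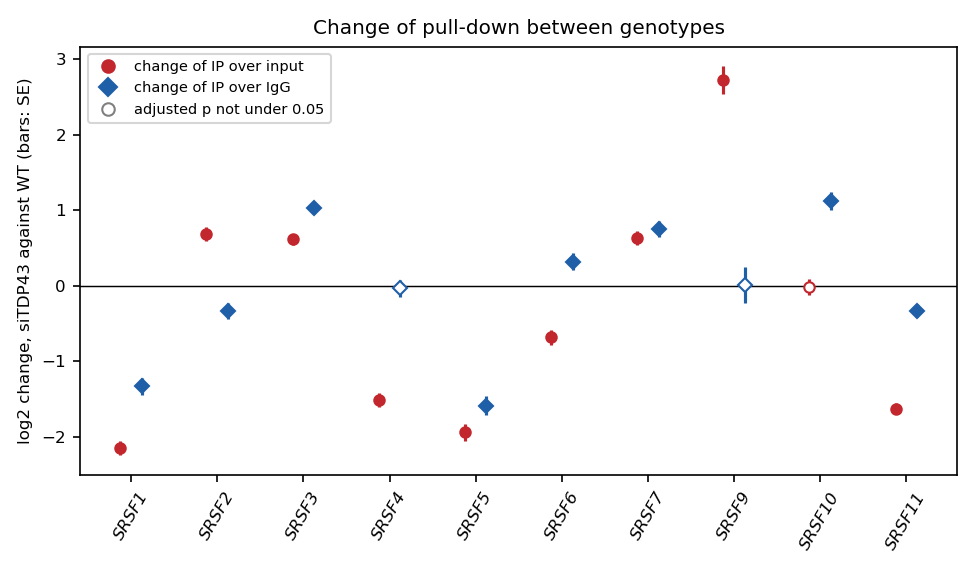
Difference of log2 IP over input (circles) and of log2 IP over IgG (diamonds) between siTDP43 and WT for each SR gene, with SE bars; open symbols had an adjusted p not under 0.05. SRSF9 is highest over input at 2.72 and SRSF1 lowest at -2.15, and SRSF1 and SRSF5 are low by both measures.

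The share of all counts that the 10 genes took together followed no common order in the 2 genotypes. It was 0.145% ± 0.00135 in WT input, 0.237% ± 0.00170 in IP (SD, n = 3) and 0.173% ± 0.00585 in IgG (n = 2), and 0.383% ± 0.00676, 0.270% ± 0.0101 and 0.203% ± 0.00725 in siTDP43 input, IP and IgG (n = 3). Input was the lowest group in WT and the highest in siTDP43, and no groups overlapped in either genotype. SRSF3 led the siTDP43 pull-downs with 31.2% of the SR counts in IP and 33.01% in IgG, where SRSF11 had led in WT and now held 15.7% and 17.5%. SRSF9 made up 0.353% of SR counts in siTDP43 input, its lowest share in any group, and 4.44% in WT input.

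**Figure D5:**
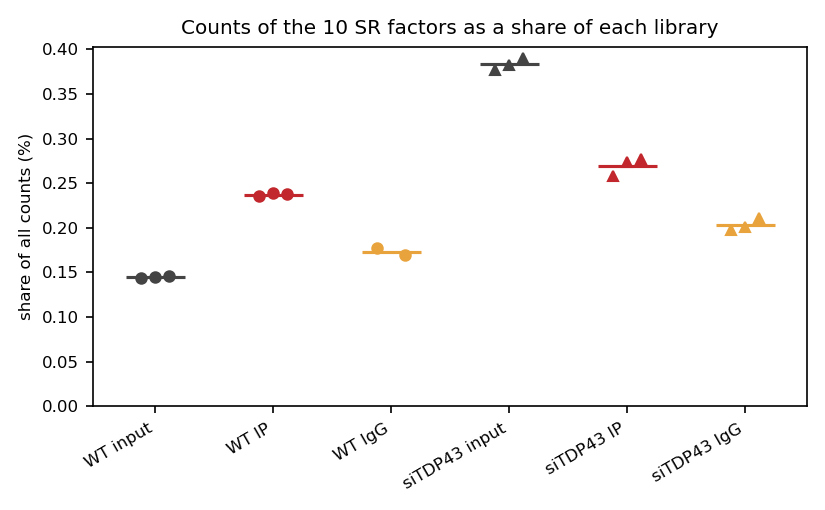
Counts of the 10 SR genes as a percentage of all counts of a library, with 1 point per library and bars at group means. WT input is the lowest group at about 0.145% and siTDP43 input the highest at about 0.383%.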

How the data were processed

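Poly(A) RNA of HEK293T cells was pulled down with anti-ac4C antibody or rabbit IgG, or kept as input, and sequenced in 17 libraries. As the methods and the submitters' processing notes give it, the authors trimmed reads with Trim Galore 0.6.7, aligned them with STAR 2.7.10a, kept uniquely aligned reads and counted them per gene with featureCounts 2.0.2. The deposited values are raw counts per gene with an exon length for each of 23368 genes, on hg19 coordinates as the table gives them. The RNA of IP and IgG samples was too scarce to quantify, so a fixed volume entered each library, and no molecular identifiers were used. The counting of strand and of read pairs was not given in the sources used here. Of genes with 1 to 20 counts, 81.3% to 95.9% per library had an even count, so both mates may have been counted, and counts halved and rounded up were tried as an alternative. The spike-in RNA that the study added was not used here.

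Groups were taken from the genotype and antibody labels. Counts were tested with edgeR 4.0.16 in R 4.3.3 (quasi-likelihood F test, two-sided, TMM, filterByExpr with a minimum count of 10, Benjamini-Hochberg adjustment over all genes tested). Inputs were compared in a fit of the 6 input libraries, pull-downs within a genotype in a fit of that genotype's libraries, and changes between genotypes as interaction contrasts in a fit of all 17. Genes were called at an adjusted p under 0.05, and in comparisons within a genotype also at a fold change above 2, the limit of the study over input. SE is the absolute log2 change divided by the square root of F. CPM and RPKM were scaled by TMM over all 17 libraries, so their ratios can differ from the fitted folds. The fits were tested on simulated data.

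The SR genes and all lists were chosen with earlier results of these data known. Named were all 10 SR genes, TARDBP, genes whose exons overlap an SR gene and, per related list, the 2 called genes with the largest absolute log2 change in a comparison described. SRSF8 and SRSF12 were named as well, as SRSF genes outside the 10. The lists were SR protein kinases, SR-related splicing coactivators, splice-site recognition partners, import and export partners, and markers of the line and of other cell types. Exons were taken from the coordinates in the table and hg19 sequence, and UTRs from its annotation. Alternatives were the Wald test of DESeq2 1.42.0, edgeR with DESeq2's size factors or scaled by total count, tests of all genes or of those averaging 50 counts or more, a replicate block, limma 3.58.1 on log2(FPKM + 1), a GC trend removed, all 17 libraries in 1 fit, a fold above 5 over IgG, and leaving out each library. They were applied to the rule of IP above both input and IgG after the data had been seen. Libraries with the same replicate number did not deviate together (highest correlation of deviations 0.0467), so the numbers were not taken to pair them.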

Additional observations from a re-analysis of the deposited data

Results flagged for a closer look

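The difference between IP and input, or between IP and IgG, was itself different in the 2 genotypes for 17 of the 20 values tested (interaction contrasts in edgeR, adjusted p under 0.05), beside 31.5% higher and 36.3% lower of all genes over input and 34.9% and 25.9% over IgG. Over input, the log2 change in siTDP43 minus that in WT was 2.72 for SRSF9, 0.69 for SRSF2, 0.63 for SRSF7 and 0.61 for SRSF3. It was -2.15 for SRSF1, -1.94 for SRSF5, -1.63 for SRSF11, -1.51 for SRSF4 and -0.68 for SRSF6. Over IgG it was 1.12 for SRSF10, 1.03 for SRSF3, 0.75 for SRSF7 and 0.32 for SRSF6. It was -1.59 for SRSF5, -1.33 for SRSF1, -0.34 for SRSF2 and -0.33 for SRSF11. SRSF2 and SRSF6 thus had opposite signs over the 2 controls.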

How the results depend on the processing

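All calls in the input comparison kept their direction and their side of the threshold under every alternative and with any library left out. Calls in the pull-downs moved. For WT IP over input, 2 SR genes were called higher with DESeq2, its size factors, total count scaling, a minimum mean of 50 counts, limma or halved counts, 3 with a GC trend removed, and 1 to 2 with 1 library left out. For WT IP over IgG, 0 were called higher at a fold above 5, and 0 to 1 lower with 1 library left out. With a GC trend removed, 1 was called lower in WT IgG against input. For siTDP43 IP over input, 1 was called higher with total count scaling or limma and 1 lower with a GC trend removed. For siTDP43 IP over IgG, 1 was called higher with total count scaling, limma or all 17 libraries in 1 fit, 1 lower with a GC trend removed, and 0 to 1 higher with 1 library left out. For siTDP43 IgG over input, 6 were called lower with total count scaling or limma, 5 with all 17 libraries, 1 with a minimum mean of 50 counts and 0 with a GC trend removed, while 2 and 4 were called higher in the last 2 settings and 0 to 1 with 1 library left out. Some signs turned. SRSF10 in WT IP over input became 0.0013 with a GC trend removed. SRSF6 in WT IgG over input became 0.035 with a minimum mean of 50 counts and 0.60 with a GC trend removed. SRSF3 in siTDP43 IP over input became -0.0044 with DESeq2, -0.0045 with its size factors, -0.26 with total count scaling, -0.26 with limma and -0.082 with all 17 libraries. SRSF5 in siTDP43 IP over IgG became 0.037 with total count scaling and 0.033 with limma. With a GC trend removed, siTDP43 IP over IgG became -0.80 for SRSF1, -0.13 for SRSF2, -0.75 for SRSF3, -0.42 for SRSF7, -0.83 for SRSF10 and -0.77 for SRSF11. Under the same setting siTDP43 IgG over input became 1.23 for SRSF3, 0.20 for SRSF5, 0.37 for SRSF6, 0.19 for SRSF7 and 0.63 for SRSF10, and SRSF3 there became 0.0898 with a minimum mean of 50 counts. The change over input of SRSF10 became 0.00039 with a minimum mean of 50 counts and ran from -0.086 to 0.025 with 1 library left out. The change over IgG of SRSF9 became -0.22 with DESeq2, -0.22 with its size factors, -0.011 without a low-count filter and -0.044 with a minimum mean of 50 counts, and ran from -0.26 to 0.23 with 1 library left out. That of SRSF4 became 0.48 with a GC trend removed and ran from -0.14 to 0.056 with 1 library left out, and that of SRSF6 became -0.27 with a GC trend removed. Above both input and IgG, 2 SR genes were called in WT with a GC trend removed, and 1 in siTDP43 with total count scaling, limma or all 17 libraries and 0 to 1 with 1 library left out. Replicate numbers as a replicate block changed no count of calls and turned only the change over IgG of SRSF9, to -0.024. Scalings moved the median of all genes too, by -0.55 with total count scaling and by 0.59 with a GC trend removed for siTDP43 IgG over input, and by -0.37 with DESeq2 for the change over IgG. The cause of these differences was not tested. The siTDP43 IgG libraries were the shallowest, with 3013989 to 3436811 counts, and limit every comparison that uses them.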

Other observations

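Genes that work with the SR proteins were counted in the same pull-downs. Of 18 SR-related coactivators, 11 were called higher and 0 lower in WT IP than in input, beside 30.2% and 27.3% of all genes tested, with a median log2 change of 1.73 against 0.013. RBM25, a splicing regulator with an arginine-rich domain, was at log2 5.57 and PNN, a speckle protein also found at desmosomes, at 4.43. In WT IgG, however, 8 of the 18 were also called higher than input and 1 lower, beside 24.4% and 36.6% of all genes, RBM25 by 3.16 and ACIN1 by 2.83. In WT IP over IgG, 5 were called higher and 0 lower, beside 35.2% and 17.8%. In siTDP43 cells 7 of 18 were called higher and 0 lower in IP than in input, beside 26.8% and 25.4%. In siTDP43 IgG against input 5 were called higher and 1 lower, beside 24.7% and 41%. SRRM2 was at 1.91 in IP and 2.22 in IgG. The change of IP over input between genotypes was called lower for 16 and higher for 2, beside 36.3% and 31.5%, with PNN at -4.07 and RBM25 at -3.83. Over IgG the split was 6 higher and 7 lower, beside 34.9% and 25.9%.

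Of 8 SR protein kinases tested in the siTDP43 pull-downs, 6 were called higher in IP than in IgG and 0 lower, beside 34% and 15% of all genes. In IgG over input 5 of the 8 were called lower and 0 higher, beside 41% and 24.7%. CLK1 had 2, 4 and 0 counts in siTDP43 IgG and 48.0, 48.1 and 49.2 CPM in IP, below its input at 62.7 ± 3.29 CPM (SD, n = 3). CLK4 had 0 counts in siTDP43 IgG and was at least 8.22-fold higher in IP, the bound taking 3 counts per IgG library, while its IP was also below input (9.27 ± 0.305 against 23.6 ± 1.10 CPM, n = 3). In WT IP over input 3 of 9 kinases were called higher and 3 lower, close to the 30.2% and 27.3% of all genes.

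Of the 8 splice-site partners, 3 were called higher and 0 lower in IP over input in either genotype. Of all genes, 30.2% in WT and 26.8% in siTDP43 were called higher there, and 27.3% and 25.4% lower. In IgG over input 3 were called higher and 1 lower in either genotype. Of all genes, 24.4% and 24.7% were called higher there, and 36.6% and 41% lower. SNRNP70 was at 4.42 in WT IP and 2.82 in WT IgG over input, and at 5.90 and 6.01 in siTDP43. In siTDP43 IP over IgG, edgeR called 0 of the 8, 6 having an unadjusted p under 0.05, where 34% of all genes were called higher and 15% lower. ALYREF was at 3.75 and 5.37 in WT and siTDP43 IP over input and at 4.71 and 5.79 in IgG over input.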
